A study of Mus musculus and Rattus norvegicus with 43 samples.

Results

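Brain endothelial cells line the capillaries of the striatum and carry the blood-brain barrier, and 36 genes that mark these cells or build the barrier are described here. They were found by gene symbol in a table of read counts from mouse striatum, as 36 of its 54532 gene rows, and all 36 passed the filter on low counts that left 19413 genes to be tested. By role they comprise 6 junction and adhesion genes, 7 receptors, 5 transporters, 7 transcription factors, 3 Ly6 proteins and 8 secreted or other proteins. The rule goes by symbol, and the list was drawn up with earlier results of these data known.

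C57BL/6 mice had been injected on postnatal day 0 and were 4 months old when the striatum of 1 hemisphere was frozen and its total RNA taken with Trizol for Illumina sequencing. The 8 N mice carry the injection label N-TAF MiRNA, the 5 C/N mice the label C/N-TAF MiRNA and the 8 controls the label control miRNA. The series describes the injected miRNAs as set against nTaf1 or cnTaf1, with a scramble as the control. The product of Taf1 is the scaffold of TFIID, a complex that starts transcription by RNA polymerase, and N-TAF is the form made in neurons. The sources used here do not give the vector, the promoter that drove the miRNAs or the cells they reached. A second label ends in the same control-like suffix for every mouse, so groups rest on the injection label. For 1 further mouse that label names no injection, and its library entered no comparison. Each library is 1 mouse, so p-values measure the spread between animals.

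The barrier rests on tight junctions sealed by claudins and occludin, on a low rate of vesicle traffic, and on transporters that admit nutrients and expel drugs. Endothelial cells acquire it under Wnt signals from the surrounding brain and keep it in contact with pericytes and astrocytes. VEGF and angiopoietin receptors keep the vessels alive and quiescent, and transcription factors of the ETS, SOX and KLF families hold the endothelial state. In bulk tissue, fewer endothelial cells and less RNA per endothelial cell cannot be told apart.

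Libraries held 24.9 to 35.6 M (mega) counts assigned to genes. Levels are given as CPM, counts brought to equal library totals with TMM factors. Taf1, the targeted gene, lay between 83.7 and 104 CPM in N mice (median 99.8). It lay between 50.6 and 105 CPM in C/N mice (median 101) and between 87.1 and 103 CPM in controls (median 101). Its log2 fold change against controls was -0.02 in N mice. In C/N mice it was -0.12 (SE 0.113), and 0.03 without C/N library 2, described below. Counts per gene do not separate the isoforms of Taf1. Summed over 10 marker genes of striatal spiny neurons, the level was 8125 to 10574 CPM in N mice, 9047 to 11671 in C/N mice and 9731 to 11259 in controls, so the labelled tissue is present in every library. C/N library 2 stood apart. Across genes, its deviation from the control mean ran downward with exonic length, at a rank correlation of -0.535, against -0.337 to 0.384 in the other libraries of the 3 groups. Counts and medians of the C/N group that move without it are therefore also given without it. The choroid plexus gene Ttr reached 1542 and 3431 CPM in N libraries 5 and 6, above the highest control at 910.3.

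Promoter sequence was available for 23 of the 36 genes, as 34 windows of RefSeq on build GRCm38.p6 that run from 250 bases before to 50 bases after a transcription start. Short motifs were searched on both strands in these windows and in all 32851 windows of the reference. CAGGAAG, a core of ETS sites, was present in 11 of the 34 endothelial windows (32.4%) and in 13.3% of all windows. CCGGAAG, another ETS core, shares its end with the first motif but cannot match at the same place, and it was in 0 of 34 endothelial windows and in 8.86% of all. CACACCC, a core of KLF sites, was in 8.82% of endothelial and 7.95% of all windows. For ACAATG, a core of SOX sites, the shares were 11.8% and 12.6%. The shares were 2.94% and 3.73% for CTTTGAT, the core bound by Lef1, and 20.6% and 13.6% for TATAAA, the box that marks some promoters. A match says only that the letters stand in the window.

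The windows below belong to 5 endothelial genes chosen after their values in N mice were seen, and capitals mark any of the 6 motifs on either strand. Cyyr1, Ushbp1 and Robo4 hold CAGGAAG, read as CTTCCTG where it lies on the opposite strand, at 156, 58 and 44 bases before the start. Abcb1a and Klf2 hold none of the 6. Each is written 5′ to 3′ on the strand of its gene. Cyyr1 lies on the minus strand at chr16:85550324-85550623, Ushbp1 on the minus strand at chr8:71395752-71396051, Robo4 on the plus strand at chr9:37401722-37402021, Abcb1a on the plus strand at chr5:8566841-8567140 and Klf2 on the plus strand at chr8:72318812-72319111.
Cyyr1: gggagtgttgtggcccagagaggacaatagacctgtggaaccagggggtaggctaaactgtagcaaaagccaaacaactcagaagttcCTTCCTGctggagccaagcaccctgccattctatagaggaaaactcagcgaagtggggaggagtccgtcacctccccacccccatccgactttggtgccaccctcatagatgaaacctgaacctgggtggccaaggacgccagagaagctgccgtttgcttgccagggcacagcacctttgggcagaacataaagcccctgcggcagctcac
Ushbp1: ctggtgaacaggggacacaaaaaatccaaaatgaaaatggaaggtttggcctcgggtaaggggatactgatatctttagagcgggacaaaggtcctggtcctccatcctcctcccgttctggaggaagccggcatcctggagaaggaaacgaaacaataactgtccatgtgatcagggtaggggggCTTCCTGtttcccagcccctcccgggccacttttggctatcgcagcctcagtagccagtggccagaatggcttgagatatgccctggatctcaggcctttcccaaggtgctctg
Robo4: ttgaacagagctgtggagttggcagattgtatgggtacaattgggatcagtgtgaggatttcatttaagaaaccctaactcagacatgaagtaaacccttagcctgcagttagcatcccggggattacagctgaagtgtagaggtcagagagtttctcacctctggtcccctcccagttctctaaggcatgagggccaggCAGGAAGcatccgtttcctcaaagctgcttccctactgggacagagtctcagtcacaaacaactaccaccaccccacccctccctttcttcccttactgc
Abcb1a: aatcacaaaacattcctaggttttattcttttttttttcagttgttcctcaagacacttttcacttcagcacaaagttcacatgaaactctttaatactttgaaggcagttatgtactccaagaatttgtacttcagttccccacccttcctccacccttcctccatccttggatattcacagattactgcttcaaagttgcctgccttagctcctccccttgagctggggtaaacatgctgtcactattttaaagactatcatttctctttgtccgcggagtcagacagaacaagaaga
Klf2: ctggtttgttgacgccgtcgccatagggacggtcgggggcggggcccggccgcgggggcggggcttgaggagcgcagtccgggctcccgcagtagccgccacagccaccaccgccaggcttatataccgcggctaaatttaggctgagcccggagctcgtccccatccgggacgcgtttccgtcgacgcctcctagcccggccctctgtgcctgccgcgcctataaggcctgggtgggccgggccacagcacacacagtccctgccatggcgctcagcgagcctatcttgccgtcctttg

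The first comparison set the N mice against controls. In N mice the endothelial and barrier genes were lower as a body: all 36 had a log2 fold change below 0, with a median of -0.38, while the median over all 19413 genes tested was 0.0067. Levels of the 36 genes summed to between 573 and 792 CPM in N mice (median 659) and to between 805 and 910 CPM in controls (median 827), so every N library lay below every control. Counted gene by gene, 36 of 36 genes were below the control mean in N libraries 2, 7 and 8, and 25 to 35 in the other N libraries.

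None of the 36 passed at an adjusted p under 0.05 in edgeR's fit of the 3 groups, and none of the 19413 genes did (0.0% called). The unadjusted p is that of edgeR unless an exact permutation p is named. At an unadjusted p under 0.05, 23 of the 36 were lower and 0 higher, against 4.33% of all genes lower. DESeq2 called 8 of the 36, all lower, against 0.304% of all genes lower, and limma-voom called 0. C/N library 2 enters this comparison through the filter on low counts, the scaling and the shared estimate of the spread. Without it, 11 fell at an adjusted p under 0.05, against 0.667% of the 19653 genes then tested called lower. They were Abcb1a, Cdh5, Cyyr1, Eng, Flt1, Kdr, Klf2, Slco1a4, Sox17, Ushbp1 and Zfp366. A fit of N and control mice alone also called 11, with Ptprb in place of Eng, against 0.738% of all genes lower. Without both C/N library 2 and the 2 N libraries of high Ttr, 3 of the 36 were called (Abcb1a, Cyyr1 and Zfp366), against 0.0563% of all genes lower. The same 3 were called without C/N library 2 when a class of the library by reads of Ambn, described further on, was added as a covariate, against 0.0611% of all genes lower.

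**Figure D1:**
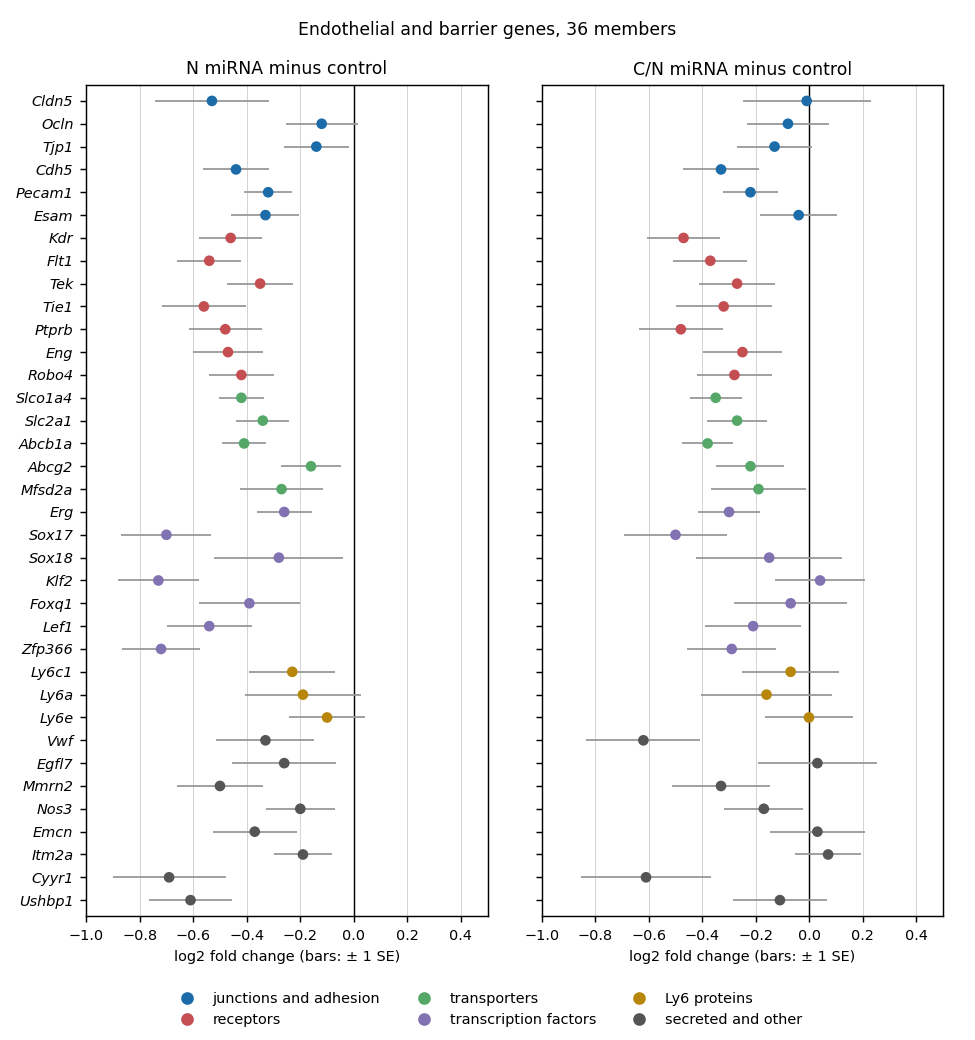
Log2 fold changes of the 36 genes for N mice minus control (left) and C/N mice minus control (right) in the fit of the 3 groups, ordered and coloured by role, with bars of 1 standard error. All 36 points lie below 0 on the left, and 32 of 36 lie below 0 on the right.

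All 7 receptors had a log2 fold change below 0 and an unadjusted p under 0.05 and their median log2 fold change was -0.47. Flt1, a VEGF receptor that also acts as a decoy for the ligand, was at 44.1 to 66.6 CPM in N mice (median 55.7), at 91.5, 47.0, 64.7, 64.0 and 45.8 CPM in C/N libraries 1 to 5, and at 64.4 to 90.9 CPM in controls (median 82.4). Kdr, the main signalling receptor for VEGF, was at 7.57 to 12.2 CPM in N mice (median 9.83), at 11.2, 7.91, 9.64, 12.6 and 8.34 CPM in C/N libraries 1 to 5, and at 10.4 to 18.1 CPM in controls (median 13.8). For Flt1, 6 of 8 N mice lay below every control, and for Kdr 5 of 8. The log2 fold change was -0.54 (SE 0.12) for Flt1 and -0.46 (SE 0.118) for Kdr, with an exact two-sided permutation p over the 16 libraries of 0.000466 and 0.00171. Both fell in the fit without C/N library 2, at adjusted p of 0.0405 and 0.0389, against 0.121 and 0.216 in the 3 groups.

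Eng, a co-receptor for TGF-beta ligands, was at 10.6 to 21.8 CPM in N mice (median 14.8), at 16.5, 25, 18.2, 15.7 and 13.6 CPM in C/N libraries 1 to 5, and at 18.4 to 24 CPM in controls (median 20.4). Ptprb, the phosphatase that restrains the angiopoietin receptor and VE-cadherin, was at 32.1 to 54.7 CPM in N mice (median 35.3), at 57.9, 22.9, 39.7, 44.0 and 29.2 CPM in C/N libraries 1 to 5, and at 50 to 59.9 CPM in controls (median 53.7). Of Ptprb, 7 of 8 N mice lay below every control, and N library 1 at 54.7 CPM lay among the controls. The log2 fold changes were -0.47 (SE 0.129) for Eng and -0.48 (SE 0.137) for Ptprb. Tek and Tie1, the angiopoietin receptor and its partner, were at -0.35 and -0.56, and Robo4, a receptor that stabilises vessels, was at -0.42.

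Among transporters, 3 of 5 had an unadjusted p under 0.05, and the median was -0.34. Abcb1a (ENSMUSG00000040584), the efflux pump P-glycoprotein of mouse capillaries, was at 27.3 to 36.4 CPM in N mice (median 29.8), at 39.9, 25.4, 32.3, 35.5 and 26.8 CPM in C/N libraries 1 to 5, and at 38.9 to 45.1 CPM in controls (median 41.0). All 8 N mice lay below every control, and 4 of 5 C/N mice did. Its log2 fold change in N mice was -0.41 (SE 0.0831), with an adjusted p of 0.0881 in the 3 groups, 0.00967 without C/N library 2 and 0.0024 with N and control mice alone. Its exact permutation p of 0.000155 is the smallest that 8 against 8 libraries can give. Of all tested genes, 0.108% lay without overlap below the controls in N mice, and of the 36 these were Abcb1a and Cyyr1.

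Slco1a4 (ENSMUSG00000030237), an organic anion transporter of the barrier, was at 36.1 to 55.5 CPM in N mice (median 41.5), at 58.5, 42.8, 45.5, 44.7 and 37.7 CPM in C/N libraries 1 to 5, and at 52.3 to 63.9 CPM in controls (median 58.5). Here 7 of 8 N mice lay below every control, at a log2 fold change of -0.42 (SE 0.0851). Its adjusted p was 0.0881 in the 3 groups and 0.0302 without C/N library 2. Slc2a1, the glucose transporter of the barrier, was at 62.3 to 92.1 CPM in N mice (median 76.7), at 76.4, 85.3, 81.6, 83.0 and 69.8 CPM in C/N libraries 1 to 5, and at 73.8 to 117 CPM in controls (median 88.7). Its groups overlapped, with 3 of 8 N mice below every control and a log2 fold change of -0.34 (SE 0.0983) that did not pass in any fit named above. Abcg2, a second efflux pump, was at -0.16 and Mfsd2a, the lipid transporter that holds vesicle traffic low, at -0.27, and neither had an unadjusted p under 0.05.

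**Figure D2:**
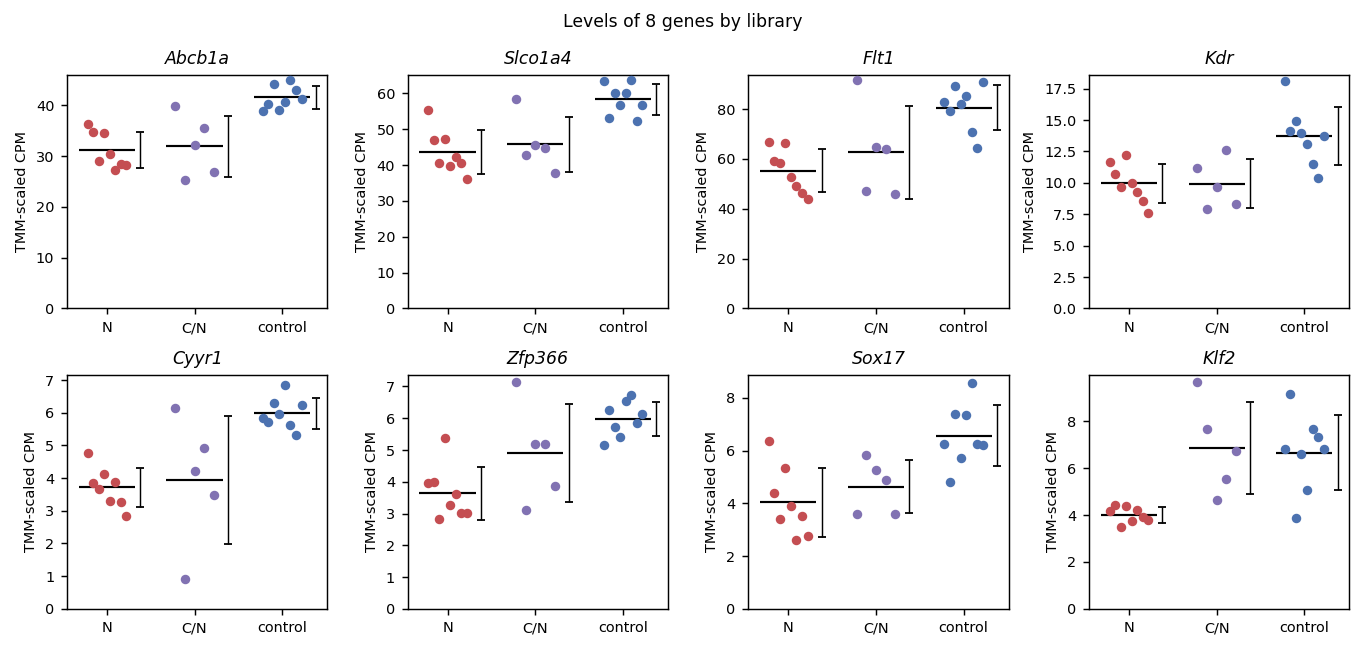
TMM-scaled CPM of 8 endothelial and barrier genes in every library of the N, C/N and control groups, with the group mean as a line and 1 SD as a bar beside it. Abcb1a and Cyyr1 show no overlap between N mice and controls, and Klf2 shows none between C/N and N mice.

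Transcription factors had the lowest median of the 6 roles, at -0.54, and 5 of 7 had an unadjusted p under 0.05. Klf2 (ENSMUSG00000055148), a factor induced by blood flow, was at 3.49 to 4.43 CPM in N mice (median 4.04), at 9.68, 7.68, 4.66, 5.53 and 6.73 CPM in C/N libraries 1 to 5, and at 3.88 to 9.19 CPM in controls (median 6.82). N mice were tightly grouped, with a coefficient of variation of 8.37% against 24.1% in controls, and control library 3 at 3.88 CPM lay among them. Klf2 differed by a log2 fold change of -0.73 in N mice (SE 0.151; adjusted p = 0.0892 in the 3 groups and 0.0299 without C/N library 2).

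Zfp366 (ENSMUSG00000050919), a zinc finger corepressor, was at 2.83 to 5.38 CPM in N mice (median 3.44), at 7.15, 3.11, 5.19, 5.2 and 3.87 CPM in C/N libraries 1 to 5, and at 5.16 to 6.74 CPM in controls (median 5.99). Sox17 (ENSMUSG00000025902), a factor of arterial and barrier endothelium, was at 2.59 to 6.37 CPM in N mice (median 3.71), at 3.59, 5.82, 5.25, 4.89 and 3.59 CPM in C/N libraries 1 to 5, and at 4.81 to 8.57 CPM in controls (median 6.24). For Zfp366, 7 of 8 N mice lay below every control, and for Sox17 6 of 8. Their log2 fold changes were -0.72 (SE 0.147) and -0.70 (SE 0.168), at adjusted p of 0.0881 and 0.18 in the 3 groups. Both fell in the fit without C/N library 2 (adjusted p of 0.012 and 0.0347). Lef1, which carries Wnt signals to the genome, was at -0.54, the ETS factor Erg at -0.26, Foxq1 at -0.39 and Sox18 at -0.28. Lef1 and Erg had an unadjusted p under 0.05, while Foxq1 and Sox18 did not in edgeR. The exact permutation p of Foxq1 was 0.0163.

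Junction and adhesion genes had a median of -0.32, with 4 of 6 at an unadjusted p under 0.05. Cdh5, the VE-cadherin of endothelial adherens junctions, was at 6.93 to 11.6 CPM in N mice (median 9.27), at 12.9, 7.26, 10.9, 10.8 and 7.65 CPM in C/N libraries 1 to 5, and at 10.4 to 14.6 CPM in controls (median 12.7). For Cdh5, all 8 N mice lay under the mean of the controls and 5 under every control. It fell in the fit without C/N library 2 (log2 fold change -0.44, SE 0.109, adjusted p = 0.0489). In the 3 groups its adjusted p was 0.221. Pecam1, the adhesion molecule CD31, was at 12.8 to 17.2 CPM in N mice (median 15.2), at 18.2, 17.2, 14.9, 16.6 and 13.1 CPM in C/N libraries 1 to 5, and at 14.8 to 21.6 CPM in controls (median 18.7). Esam, an adhesion molecule of endothelial tight junctions, was at 7.91 to 13.7 CPM in N mice (median 10.6), at 8.78, 18.3, 14.1, 13.3 and 10.7 CPM in C/N libraries 1 to 5, and at 11.7 to 14.9 CPM in controls (median 13.3). Both overlapped with the controls, at log2 fold changes of -0.32 (SE 0.09) and -0.33 (SE 0.127).

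The 3 classical tight junction genes differed in size. Cldn5, the claudin that seals brain capillaries, was at -0.53 (SE 0.212, adjusted p = 0.411), with N mice at 13.3 to 25 CPM and controls at 15.4 to 35.4 CPM. Ocln was at -0.12 and Tjp1, a scaffold that other brain cells also express, at -0.14. For Tjp1, 7 of 8 N mice lay below every control, and N library 1 at 118 CPM lay among the controls, which began at 113 CPM.

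Ly6 proteins, small membrane-anchored surface antigens of brain endothelium, had the median nearest 0 of the 6 roles in N mice, at -0.19, with 0 of 3 at an unadjusted p under 0.05. Ly6c1 was at 15.7 to 22.8 CPM in N mice (median 18), at 17.7, 34.1, 21, 16.5 and 14.3 CPM in C/N libraries 1 to 5, and at 16.2 to 32.1 CPM in controls (median 20.3). Ly6a was at 9.38 to 17.1 CPM in N mice (median 10.7), at 8.02, 22.9, 12.2, 10.8 and 5.30 CPM in C/N libraries 1 to 5, and at 9.61 to 21.6 CPM in controls (median 12.5). Ly6e, which other cell types also express, was at 35.6 to 46.1 CPM in N mice (median 44.2), at 38.4, 85.4, 37.6, 35.6 and 33.2 CPM in C/N libraries 1 to 5, and at 37.4 to 55.3 CPM in controls (median 45.7). All 3 overlapped between N mice and controls, and in all 3 C/N library 2 was the highest of its group. Their log2 fold changes in N mice were -0.23 (SE 0.16), -0.19 (SE 0.216) and -0.10 (SE 0.143). Those of Ly6c1 and Ly6a lay at 0.029 and 0.01 when only controls with a number under 10 in the sample title were used. Title numbers ran from 16 to 25 in N mice, from 8 to 15 in C/N mice, and from 2 to 7 and 26 to 28 in controls. Each run of numbers thus holds 1 group, and what the numbers stand for is not stated.

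Secreted and other proteins had a median of -0.35, with 4 of 8 at an unadjusted p under 0.05. Cyyr1 (ENSMUSG00000041134), a cysteine and tyrosine rich membrane protein, was at 2.83 to 4.78 CPM in N mice (median 3.76), at 6.13, 0.896, 4.23, 4.92 and 3.49 CPM in C/N libraries 1 to 5, and at 5.33 to 6.86 CPM in controls (median 5.90). All 8 N mice lay below every control (exact permutation p = 0.000155), yet with C/N library 2 at 0.896 CPM in the fit the adjusted p was 0.266, against 0.00967 without it. The log2 fold change of Cyyr1 was -0.69 in both, with an SE of 0.211 and 0.112. Ushbp1 (ENSMUSG00000034911), a partner of the scaffold protein harmonin, was at 3.28 to 6.12 CPM in N mice (median 3.96), at 6.20, 8.93, 6.12, 5.03 and 5.30 CPM in C/N libraries 1 to 5, and at 4.80 to 8.56 CPM in controls (median 7.01). It fell in the fit without C/N library 2 (log2 fold change -0.61, SE 0.137, adjusted p = 0.0347), with 5 of 8 N mice below every control. In the 3 groups its adjusted p was 0.216.

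Mmrn2, a matrix protein of vessel walls, was at 2.73 to 5.58 CPM in N mice (median 3.48), at 5.37, 4.69, 4.14, 3.96 and 2.76 CPM in C/N libraries 1 to 5, and at 3.44 to 6.10 CPM in controls (median 5.45). Its groups overlapped, at a log2 fold change of -0.50 (SE 0.16). Emcn, the surface mucin endomucin, was at -0.37. Vwf, the von Willebrand factor of clotting, was at -0.33 with N mice split: N library 3 held 32.5 CPM, above every control, and 6 of the other N mice lay below every control. Without N library 3 the log2 fold change of Vwf was -0.58 (adjusted p = 0.15). Egfl7, a secreted matrix factor, Nos3, the endothelial nitric oxide synthase, and Itm2a, a membrane protein, were at -0.26, -0.20 and -0.19, and these 3 and Vwf had no unadjusted p under 0.05 in edgeR. The exact permutation p was 0.0141 for Itm2a and 0.0435 for Egfl7.

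**Figure D3:**
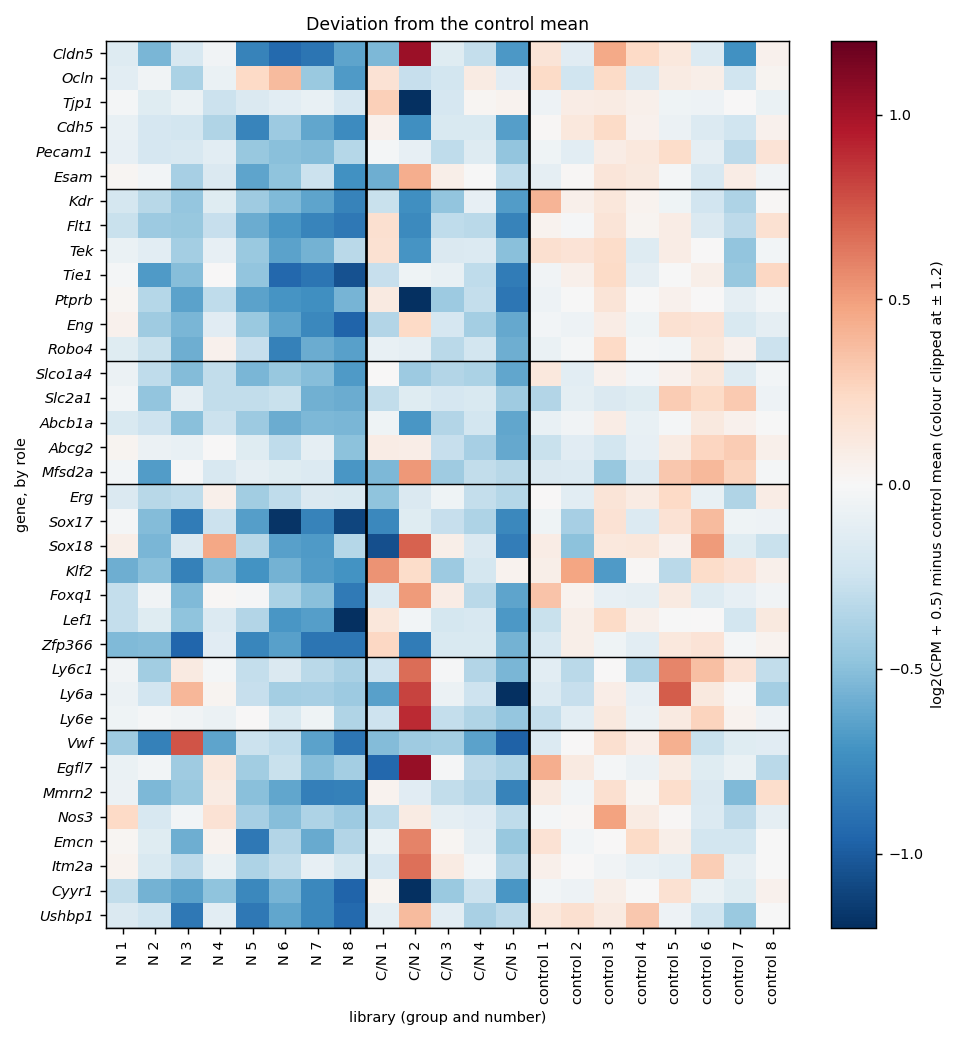
Deviation of log2(CPM + 0.5) from the control mean for each of the 36 genes (rows, by role) in each library (columns, N, C/N and control), clipped at 1.2 in either direction, with blue for below the control mean. N libraries 5 to 8 are blue in most rows, N libraries 1 and 4 are the palest of their group, and C/N library 2 holds both the reddest and the bluest cells.

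N mice differed among themselves in how far the whole set was shifted. The median deviation over the 36 genes, on a log2(CPM + 0.5) scale, was between -0.67 and -0.075 in N mice (median -0.425), and N libraries 1 and 4, at -0.075 and -0.13, lay within the control range of -0.14 to 0.11. In C/N mice it was between -0.60 and -0.074 (median -0.21), and C/N libraries 1 and 2, at -0.14 and -0.074, lay among the controls. Leaving out N library 1 moved the median log2 fold change of the 36 genes to -0.41 and brought Slco1a4, Abcb1a and Sox17 past the adjusted threshold in the fit of the 3 groups, at adjusted p of 0.0193, 0.0294 and 0.0294, against 0.129% of all genes called lower. Leaving out C/N library 1 in the same way brought 5 past it, namely Flt1, Slco1a4, Abcb1a, Klf2 and Zfp366, against 0.0458% of all genes called lower. Of the 21 fits that each left out 1 library, only these and the fit without C/N library 2 called any of the 36.

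The second comparison set the C/N mice against the same controls. Of the 36 genes, 32 had a log2 fold change below 0, with a median of -0.22 against 0.00076 over all genes tested. Summed levels were 598 to 801 CPM in C/N mice (median 720) and 805 to 910 CPM in controls, again without overlap. The abundant Tjp1 weighs on this sum. Without it, C/N library 2 held 735 CPM, among the controls at 685 to 795 CPM, while the other 4 C/N libraries and all 8 N libraries still lay below every control. None passed at an adjusted p under 0.05 in edgeR's fit (0.0% called), and DESeq2 and limma-voom also called 0. At an unadjusted p under 0.05, 12 were lower and 0 higher, against 3.28% of all genes lower. They were Abcb1a, Slco1a4, Slc2a1, Kdr, Flt1, Ptprb, Cdh5, Pecam1, Erg, Sox17, Vwf and Cyyr1. Without C/N library 2 the median was -0.31, 35 of 36 were below 0 and 18 had an unadjusted p under 0.05, against 3.03% of all genes lower. Cdh5 and Flt1 were not among the 18, while the additions included Cldn5, Eng, Ly6a and Ly6e.

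By role, the C/N medians were -0.32 for receptors, -0.27 for transporters, -0.21 for transcription factors, -0.14 for secreted and other proteins, -0.11 for junction genes and -0.069 for Ly6 proteins. Without C/N library 2 the Ly6 proteins had the lowest of these medians, at -0.35, followed by receptors at -0.33, secreted and other proteins at -0.31, transporters and transcription factors at -0.30 each and junction genes at -0.21. The smallest p belonged to Abcb1a, at a log2 fold change of -0.38 (SE 0.0955), then to Slco1a4 at -0.35 (SE 0.0977) and Kdr at -0.47 (SE 0.135), whose levels are given above. Exact permutation p-values for these, over 5 against 8 libraries, were 0.00233, 0.00389 and 0.00932. Vwf was at 13.1, 14, 14.2, 12 and 9.45 CPM in C/N libraries 1 to 5 and at 15.7 to 25.7 CPM in controls (median 18.2). All 5 C/N mice lay below every control, which 0.175% of all tested genes did, at a log2 fold change of -0.62 (SE 0.213, adjusted p = 0.59). Its exact permutation p of 0.000777 is the smallest that 5 against 8 libraries can give. Klf2 was at 0.04 (SE 0.168) in C/N mice, a sign that turned in several of the fits that left out libraries.

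**Figure D4:**
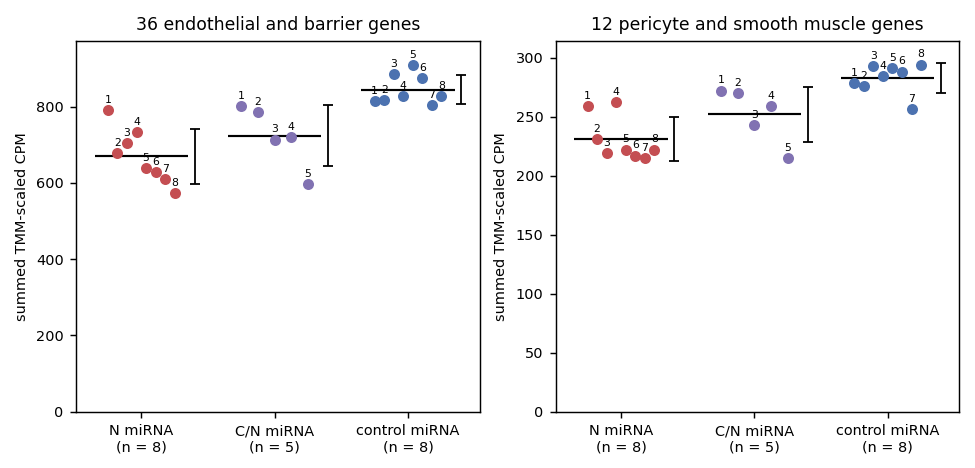
Summed TMM-scaled CPM of the 36 endothelial and barrier genes (left) and of 12 pericyte and smooth muscle genes (right) in each library, numbered within its group, with the group mean as a line and 1 SD as a bar. On the left every N and C/N library lies below every control; on the right N mice lie at 215 to 262, C/N mice at 215 to 272 and controls at 256 to 294.

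N and C/N mice were set against the same 8 controls, so their shared direction is not independent. Set against each other, C/N minus N had a median of 0.12 over the 36 genes and 3.4e-05 over all genes. Without C/N libraries 1 and 2, the libraries of the widest length trends, it was 0.044 over the 36, with 2 lower and 2 higher at an unadjusted p under 0.05, against 6.84% of all genes lower and 6.08% higher. No gene of the 36 passed in edgeR (0.0% called), limma-voom called 0, and DESeq2 called Klf2 alone (adjusted p = 0.00951), against 0.453% of all genes called higher. At an unadjusted p under 0.05, 6 were higher in C/N mice and 0 lower, against 5.99% of all genes higher. They were Klf2, Ushbp1, Zfp366, Emcn, Cldn5 and Itm2a. Without C/N library 2, Cldn5 moved to 0.09 in place of 0.52, Itm2a to 0.07 in place of 0.26, Emcn to 0.20 in place of 0.40 and Ushbp1 to 0.34 in place of 0.50. Then 4 were higher (Klf2, Zfp366, Cyyr1 and Tjp1) and Ly6e was lower at an unadjusted p under 0.05, against 7.85% of all genes higher and 7.83% lower. Klf2 was the one gene of the 36 without overlap: C/N mice at 4.66 to 9.68 CPM all lay above N mice at 3.49 to 4.43 CPM, as 0.222% of all tested genes did. Klf2, with Tjp1, Slc2a1, Ly6e, Lef1 and Itm2a, was outside the 30 genes taken as not shared with other brain cells. Its level in bulk tissue need not come from endothelium. It differed by 0.77 on the log2 scale (SE 0.169, adjusted p = 0.112, and 0.0545 without C/N library 2), with an exact permutation p of 0.000777. With every library, Ushbp1 followed at 0.50 (SE 0.176) and Zfp366 at 0.43 (SE 0.166), and both overlapped between the groups.

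Other genes of the vessel wall were lower in N mice as well. Of 30 further endothelial genes, 28 were below 0 (median -0.19), with 12 lower and 1 higher at an unadjusted p under 0.05. Over all 19413 genes tested, 840 (4.33%) were lower and 982 higher at that p. Adgrl4 and Adgrf5, adhesion receptors of endothelium, were at -0.35 (SE 0.0935) and -0.42 (SE 0.116), and the ETS factor Ets1 at -0.37 (SE 0.104). The one higher was Tfrc, the transferrin receptor, at a median of 104 CPM in N mice, 75.1 CPM in C/N mice and 90.5 CPM in controls, with a log2 fold change of 0.20 (SE 0.08) in N mice and -0.29 (SE 0.0921) in C/N mice. Of 12 pericyte and smooth muscle genes, 8 were lower and 0 higher at an unadjusted p under 0.05, against 4.33% of all genes lower. Their median was -0.26. Rgs5 and Abcc9, both of pericytes, were at -0.41 (SE 0.088) and -0.51 (SE 0.128). In C/N mice the medians of these lists were -0.14 and -0.18.

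Of 14 genes of the barrier's Wnt pathway, 2 were lower and 0 higher in N mice at an unadjusted p under 0.05. Of all genes 4.33% were lower. The median of the 14 was -0.049. The ligands Wnt7a and Wnt7b were at 0.12 and 0.08, and the co-receptors Adgra2 and Reck at -0.17 and -0.05. In C/N mice 3 of the 14 were lower at that p, against 3.28% of all genes, with Adgra2 at -0.32 and Reck at -0.35. Of 13 tested vascular ligands and partners, 4 were lower and 2 higher in N mice at an unadjusted p under 0.05 (median -0.15). Of all 19413 genes tested, 840 were lower and 982 higher. Vegfa was at -0.18 (SE 0.0642), the Notch ligand Dll4 at -0.53 (SE 0.183) and Angpt1, which activates the angiopoietin receptor, at 0.72 (SE 0.192).

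Lists for other cells of the tissue gave these medians in N mice: 0.15 for 10 astrocyte genes, -0.092 for 10 microglial genes, -0.078 for 10 oligodendrocyte genes, 0.003 for 10 neuronal genes, -0.18 for 10 spiny neuron genes, -0.024 for 8 fibroblast and meningeal genes, 0.034 for 5 red cell genes and 1.14 for 10 choroid plexus genes. Markers of neighbouring tissue had medians above 0, at 0.39 for 8 genes of cortical and hippocampal excitatory neurons and 0.33 for 8 ependymal genes, with all 8 above 0 in each list and 0 at an unadjusted p under 0.05. In C/N mice these medians were -0.40 and 0.37. The excitatory genes summed to a median of 212 CPM in N mice (highest 421), 138 CPM in C/N mice (highest 355) and 170 CPM in controls (highest 276), and the ependymal genes to 55.6 to 115 CPM in N mice, 68.9 to 96.7 CPM in C/N mice and 65.2 to 80.5 CPM in controls. Of 5 muscle genes, the 2 that were tested, Acta1 and Actn3, were at 0.72 and 1.32 in N mice, both at an unadjusted p under 0.05. The median was -0.27 for 7 arterial genes and 0.16 for 2 genes of fenestrated endothelium. In N mice all 10 spiny neuron genes lay below 0, with 4 lower at an unadjusted p under 0.05. All 10 microglial genes lay below 0, with 3 lower. Of 10 astrocyte genes, 9 lay above 0, with 4 higher. Of 10 neuronal genes 1 was lower, and of 8 fibroblast and meningeal genes 2 were. Of oligodendrocyte, red cell and choroid plexus genes, 0 had such a p. Over all 19413 genes tested, 840 were lower and 982 higher. The part of the spiny neuron, microglial, astrocyte, excitatory, ependymal and muscle values in the endothelial ones was not tested. Summed choroid plexus levels were 31.8 to 3733 CPM in N mice, 120 to 516 CPM in C/N mice and 26.1 to 1039 CPM in controls. Without the 2 N libraries of high Ttr, the endothelial and barrier median was -0.37, and 21 of the 36 had an unadjusted p under 0.05, against 3.39% of all genes lower. Reads of Ambn, an enamel gene, put the libraries in 2 classes. The median was -0.35 within libraries at 0.5 CPM or more and -0.39 within those below, with 9 and 21 genes at an unadjusted p under 0.05, against 0.774% and 5.59% of all genes lower.

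**Figure D5:**
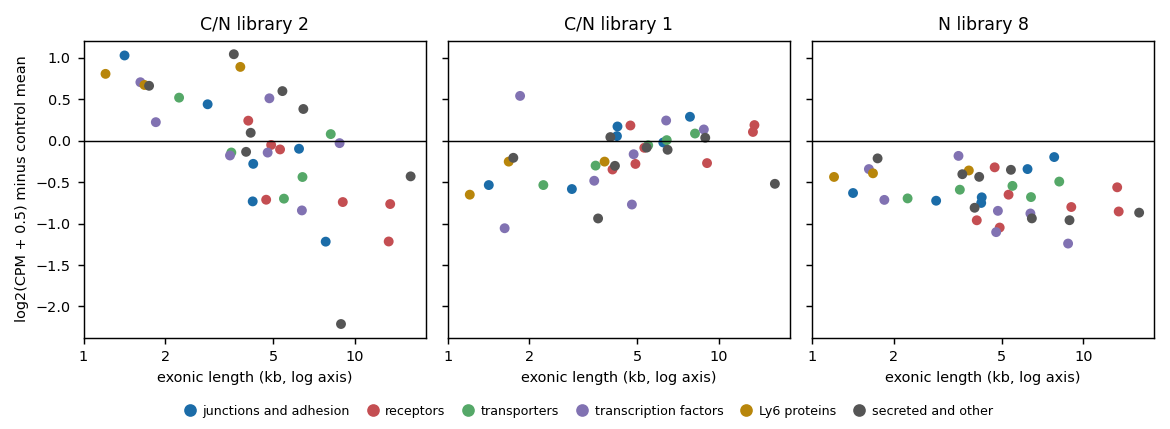
Deviation of log2(CPM + 0.5) from the control mean against exonic length (log axis) for the 36 genes in C/N library 2, C/N library 1 and N library 8, coloured by role. Points run downward with length in C/N library 2 and upward in C/N library 1, and lie below 0 at every length in N library 8.

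The order of the 36 genes by length showed in several C/N libraries. The rank correlation of the deviation with exonic length was -0.696 in C/N library 2, -0.527 in C/N library 3 and 0.514 in C/N library 1, against -0.429 to -0.0018 in N mice and -0.384 to 0.331 in controls, each over 36 genes of 1 library and as a description. In C/N library 2 short genes were high, such as Cldn5 (1416 exonic bases) at 53.1 CPM against 15.8 to 23.2 CPM in the other C/N libraries. Long genes were low there, such as Tjp1 (7811 bases) at 51.1 CPM against 104 to 146 CPM, and Cyyr1 (8894 bases) at 0.896 CPM against 3.49 to 6.13 CPM. N library 8, the lowest of its group, had all 36 genes below the control mean, long and short, and its rank correlation with length was -0.376.

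Per kilobase of exon, mean control levels ranged from 27.2 CPM for Slc2a1, 22.8 for Itm2a, 18.7 for Cldn5 and 15.3 for Tjp1 down to 0.476 for Lef1 and 0.435 for Foxq1. Some genes share sequence with a neighbour or a copy, as counted by stretches of 50 bases that recur in another gene. The share was 32.8% for Ly6c1 (with Ly6c2), 22.5% for Abcb1a (with Abcb1b), 19.0% for Ly6a, 65.7% for Foxq1 and 20.02% for Nos3, the last 2 with antisense partners. Without a stated strand setting, their reads cannot be told apart from those of the partner. Abcb1b itself was at 2.52 to 4.18 CPM in N mice and 3.48 to 4.54 CPM in controls, and Atg9b, which lies antisense to Nos3, at 3.08 to 8.81 CPM in N mice and 3.73 to 5.99 CPM in controls.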

How the data were processed

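The counts that the authors deposited are raw read counts of Ensembl genes, with 1 column per mouse. The submitters' processing notes name STAR, featureCounts and edgeR without versions, and the human build GRCh38 for these mouse libraries. The build is therefore unsettled. The sources used here give neither annotation release nor strandedness. Gene lengths, overlaps and shared sequence came from GENCODE M21. The rat table was not analysed here. Of 54532 rows, 54409 had a symbol and the other 123 held 0.07% of counts. Every library was kept as its own, since the closest pair within a group differed by 5.913 times sampling noise, over genes with 20 or more counts.

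The 21 libraries with a stated injection entered 1 quasi-likelihood fit in edgeR 4.0.16 on R 4.3.3 (limma 3.58.1). Dispersion was robust, scaling by TMM (factors 0.967 to 1.05), and filterByExpr removed low genes. P-values were adjusted by Benjamini-Hochberg over all 19413 genes tested. Single genes were also given an exact two-sided permutation test on log2(CPM + 0.5), unadjusted (SciPy 1.17.1). The median standard error at 10 CPM or more was 0.0808 for N against control and 0.092 for C/N against control. On simulated counts for N against control, the fit recovered 97% of 200 genes changed 2-fold among 19184, with 13 false calls. These changes were larger than those of the 36 genes (median log2 fold change -0.38), and no simulated library had a length trend. The 97% therefore does not give the share recovered at the smaller changes reported here. Alternatives included DESeq2 1.42.0, limma-voom, other filters and scaling, fits of 2 groups, and fits without single libraries. Fits that combine leaving out C/N library 2 with another change, and the sum without Tjp1, were added after seeing the data.

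The 36 genes, their roles and the other lists were chosen with earlier results of these data known. Described library by library are the 3 genes of smallest p per role for N against control, the 3 of smallest p over the 36 in each other comparison, and genes called in a fit described. Vwf and the promoter windows shown were chosen after values were seen. Promoters were planned for the 3 transcription factors of smallest p, of which Klf2 alone has a window.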

Additional observations from a re-analysis of the deposited data

Results flagged for a closer look

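Of 108 gene and group pairs, 5 held a library far from the others of its group, and chance alone marks about 1 in 20. Vwf stood at 32.5 CPM in N library 3, while the other N mice lay at 10.2 to 15.8 CPM. C/N library 2 held 21.8 CPM of Mfsd2a and 85.4 CPM of Ly6e, while the other C/N mice lay at 10.3 to 12.2 CPM and 33.2 to 38.4 CPM. Control library 5 held 21.6 CPM of Ly6a and control library 6 held 48.9 CPM of Itm2a, each the highest control.

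The mouse with no stated injection, which no comparison used, had higher endothelial levels than the controls. Its 36 genes summed to 1111 CPM, against 806 to 908 CPM in controls when scaled together with it. Of the 36, 22 lay above every control, 14 within their range and 0 below. Vwf was at 70.9 CPM there, against 15.6 to 25.7 CPM in controls, and Abcb1a at 62.1 CPM, against 38.9 to 44.8 CPM. Pericyte and smooth muscle genes summed to 357 CPM, against 256 to 294 CPM in controls, and red cell genes to 82.6 CPM, against 3.42 to 35.2 CPM. Their part in the result was not tested.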

How the results depend on the processing

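For N against control, the median of the 36 genes stayed between -0.44 and -0.35 when any 1 library was left out. The genes called numbered 8 of 36 by DESeq2 (95 of all genes), 11 with N and control alone (209), 13 without C/N libraries 1 and 2 (300), and 3 without C/N library 2 when either the N libraries of high Ttr were also left out (16) or the Ambn class was a covariate (16). With 1 library left out they numbered 0 to 11, and 0 to 197 of all genes. They numbered 0 unless the library left out was N library 1, C/N library 1 or C/N library 2. At an unadjusted p under 0.05, 9 were lower among libraries of high Ambn, against 0.774% of all genes lower. Against controls numbered 26 to 28, 14 of the 36 had such a p. No share over all genes is given for that fit, so nothing about the 36 is read from this count. Genes without overlap numbered 2 to 5 with 1 library left out, against 0.242% to 0.85% of all genes. Ocln lay at 0.046 among libraries of low Ambn, and Ly6c1 and Ly6a at 0.029 and 0.01 against controls numbered under 10.

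Values of C/N mice among libraries of low Ambn rest on 1 C/N library, assumed to vary like the others, so they do not test the group. For C/N against control, the median was -0.31 without C/N library 2, also with the N libraries of high Ttr left out or the Ambn class added, -0.36 without C/N libraries 1 and 2, and -0.31 to -0.16 with 1 library left out. Genes at an unadjusted p under 0.05 numbered 7 to 18 with 1 library left out, 6 among libraries of low Ambn and 7 against controls numbered 26 to 28. With 1 library left out, 0 to 1 of all genes were called and 1 to 5 of the 36 did not overlap, against 0.335% to 1.39% of all genes. Klf2 ranged from -0.11 to 0.15 with 1 library left out, and lay at -0.24 without C/N libraries 1 and 2, -0.0066 with the Ambn covariate, -0.43 among libraries of low Ambn, and, without C/N library 2, at -0.0056, at -0.011 with the N libraries of high Ttr also left out and at -0.039 with the Ambn covariate.

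For C/N against N, all genes called numbered 180 by DESeq2 (1 of the 36), 8 with no filter on low counts, 4 without C/N libraries 1 and 2, 1 with only these groups and no C/N library 2, 32 without C/N library 2 and the N libraries of high Ttr, 8 without C/N library 2 and with the Ambn covariate, and 0 to 70 with 1 library left out. Genes of the 36 at an unadjusted p under 0.05 numbered 3 with only these groups, 3 without the N libraries of high Ttr and 3 with the Ambn covariate. They numbered 1 among libraries of high Ambn, 3 with controls numbered 26 to 28, and 3 to 9 with 1 library left out. In the fit of every library, 1132 of all 19413 genes were lower and 1162 higher at that p. Nothing about the 36 is read from these counts. The median was 0.20 among libraries of low Ambn, where C/N is 1 library and the group is not tested, and 0.10 to 0.22 with 1 library left out. The cause of these changes was not tested. No paired analysis was possible because replicate numbers follow only the order of the records. Depth may limit low genes such as Foxq1 and Lef1, at control means of 2.11 and 4.18 CPM, and its part was not tested. Cyyr1, Zfp366 and Klf2, called in some fits, were also low, at 5.98, 5.98 and 6.67 CPM.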
